A study of Homo sapiens with 10 samples.

Results

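PC-3 is a prostate cancer cell line that was derived from a bone metastasis and has low androgen receptor activity. RNA of its untreated 3D spheroids was compared between day 0 and day 7 of culture. Of the 18144 genes with a deposited value, the 9936 that reached at least 10 CPM (reads per 1000000 reads assigned to genes) in the mean of the day 0 and day 7 libraries were compared, and every ratio is the day 7 CPM divided by the day 0 CPM. Just inside that limit lay TMEM221 (9.97 CPM, then 10.03 CPM) and just outside it PRR5 (11.7 CPM, then 8.34 CPM). A gene under 10 CPM on day 0 could enter only through its day 7 value. Among genes and readthrough loci named below this holds for BST2, MX2, IDO1, PSMB9, DDIT3, PPFIA4, ZEB1, PVRIG2P, PILRB and RPL36A-HNRNPH2. Their entry thus depended on the day when they were higher. Likewise RPL36A, CST6 and CHURC1-FNTB were under 10 CPM on day 7 and entered only through their day 0 value, the higher one. Both libraries are labelled control, wild type and prostate. Per the study's methods, spheroids were moved to 96-well plates and left for some days to acclimate, after which medium was exchanged in part through the week, and no drug was added to these wells. The experiment also held spheroids given topotecan, a topoisomerase I inhibitor, as a conventional dose (CON) or as extended exposure to small daily fractions (EE). There was 1 library for each treatment and day, 7 libraries in all were analysed, and the day 1 libraries were not analysed here. The labels call the last time point day 7, whereas the text of the study calls it 6 weeks.

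With 1 library per day no difference has a replicate check, so no test was made and no p-value is given. Depth was estimated from the step that 1 read makes among the low values, as 19.96 M reads (M, 1000000) for day 0, 18.9 M for the untreated library of day 3 and 19.03 M for day 7. The interval in parentheses after a fold is the exact 95% interval of the ratio of the estimated reads, which covers counting error only and not the spread between spheroids, wells or extractions. At this depth 3 reads correspond to between 0.150 and 0.159 CPM. A spheroid library is bulk RNA, in which fewer cells of a kind and less RNA per cell cannot be told apart.

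Cells in a spheroid stick to each other and to the matrix that they lay down, and the inner layers receive less oxygen and less nutrient than the rim. Background knowledge of such cultures includes hypoxia-inducible transcription, slower division in the core and a change of matrix and integrin genes. Tumor cells can also switch on interferon-stimulated genes, the set of antiviral effectors, sensors and antigen presentation genes that interferon induces. The gene groups below follow these functions.

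Defining markers of the line were present. The keratins KRT8 (822, 638 and 624 CPM on days 0, 3 and 7), KRT18 and KRT19, the adhesion protein EPCAM (195, 169 and 189 CPM), vimentin (VIM, 731, 851 and 802 CPM) and the hyaluronan receptor CD44 (374, 313 and 389.9 CPM) were all expressed on each day. TMPRSS2, which was listed as a gene expected to be low in this line, was at 71.99, 71.4 and 86.6 CPM. Of markers of cells that a pure line lacks, fibroblast genes in the table (7) summed to 63.5, 90.6 and 100.8 CPM over the days, of which COL1A1 gave 53.8, 75.7 and 83.03 CPM, while DCN had no read on day 0 and PDGFRB stayed at 0.106 CPM or less. Endothelial genes (5) summed to 41.9, 59.7 and 61.9 CPM through PECAM1 and KDR, with VWF, TEK and CLDN5 at 0 on day 0. Immune genes (5) summed to 69.3, 100.6 and 73.9 CPM, nearly all of it CD68, and PTPRC, the common leukocyte antigen, was at 0.301, 0.106 and 0 CPM.

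The week without drug left most genes close to their starting level. The median log2 ratio over the 9936 genes was 0.05 with a standard deviation of 0.32 across genes, and the middle of the distribution, from the lower to the upper quartile, ran from -0.12 to 0.24. At least 2-fold higher on day 7 were 123 genes (1.24% of those compared) and at least 2-fold lower were 7 (0.0705%). At 1.5-fold the counts were 566 (5.7%) and 105 (1.06%). Any higher value on day 7 was seen for 5788 genes (58.3%), the background against which each count of higher members below is read, and a lower value for 4148 (41.7%).

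**Figure D1:**
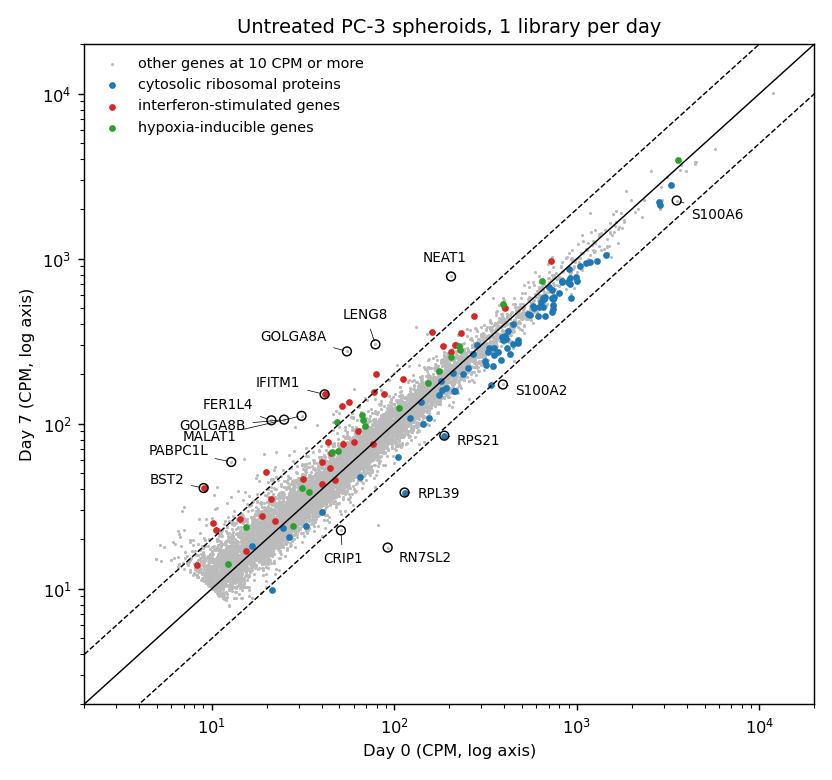
Levels of the 9936 genes on day 0 (x axis) and day 7 (y axis) in CPM on log axes, 1 point per gene and 1 library per day; the solid line marks equal levels, the dashed lines a 2-fold ratio, and circles the named genes. The 123 genes above the upper line far outnumber the 7 below the lower one. Of the interferon-stimulated genes (red) 34 of 36 lie above the solid line, and of the ribosomal protein genes (blue) 81 of 84 lie below it.

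The gene with the highest ratio was GOLGA8A, a member of a golgin gene family on chromosome 15, at 54.97, 81.7 and 274 CPM, a ratio of 4.99 (4.68 to 5.33). Its paralog GOLGA8B was at 24.9, 35.6 and 106 CPM, 4.25 (3.85 to 4.70). Reads of these near-identical copies may be divided between them by the counting, so the pair is better read together than singly. Next came FER1L4, a transcribed pseudogene on chromosome 20, at 21.2, 31.2 and 105 CPM (4.95, 4.45 to 5.51), and PABPC1L, a poly(A)-binding protein gene, at 12.8, 22.9 and 58.7 CPM (4.59, 4.005 to 5.28). For these genes the day 3 value was nearer to day 0 than to day 7, so that most of the difference lay between days 3 and 7.

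Other genes with high ratios, described here one by one, included long non-coding RNAs of the nucleus. NEAT1, the long non-coding RNA that builds paraspeckles, was at 204, 316 and 780.0 CPM, 3.82 (3.69 to 3.95), the fourth largest gain in CPM of any gene. MALAT1, the long non-coding RNA of nuclear speckles, was at 31.01, 73.7 and 112 CPM, 3.60 (3.29 to 3.94). LENG8, which is linked to nuclear retention and export of mRNA, was at 78.8, 96.2 and 303 CPM (3.84, 3.63 to 4.06), and the arginine-serine protein gene RSRP1 at 10.3, 12.6 and 37.1 CPM (3.62, 3.09 to 4.24). The cyclin L2 gene CCNL2, whose product pairs with the splicing-linked kinase CDK11, stood at 132, 165 and 386 CPM, and the CDC-like kinase CLK1, which phosphorylates SR proteins, at 13.2, 25.7 and 29.7 CPM. Of 73 splicing regulators, a list drawn up after the leading genes had been seen, 42 were higher on day 7 and 31 lower, a share near that of all genes (58.3% higher), with a median log2 ratio of 0.08 against 0.05 over all genes, and the median was -0.02 after scaling by the median of ratios. At least 2-fold higher were 5 (1.24% of all genes were), which the choice of the list favors (RSRP1, CCNL2, NKTR, CLK1 and LUC7L3). The classes of the list differed in value. Among the hnRNP genes, whose products coat nascent RNA, 20 of 22 were lower with a median of -0.25, for example HNRNPD at 199.5, 198 and 146 CPM and HNRNPA0 at 207, 204 and 156 CPM. Of the SR protein genes 9 of 13 were higher with a median of 0.08, SRSF3 being the lowest at 355, 316 and 267 CPM.

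Enzyme genes with the same time course included MAT2A, which makes S-adenosylmethionine, at 151, 146 and 351 CPM, 2.33 (2.23 to 2.43), and OGT, which adds O-linked N-acetylglucosamine to proteins, at 104, 116 and 226 CPM, 2.18 (2.07 to 2.30). For both, days 0 and 3 were close and day 7 stood apart. The transcription regulators CREBZF and DMTF1 were at 47.9, 64.8 and 119 CPM and at 21.6, 35.5 and 45.01 CPM. PPFIA4, a liprin gene, was at 7.06, 10.1 and 31.5 CPM (4.45, 3.70 to 5.39) and TNFRSF25, a death receptor of the tumor necrosis factor family, at 10.7, 12.7 and 41.2 CPM (3.86, 3.31 to 4.51).

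The 123 genes differed from the rest in gene type. Pseudogenes made up 12 of them (9.76%) against 0.775% of all genes compared, readthrough loci 11 (8.94%) against 0.282%, and long non-coding RNAs 7 (5.69%) against 1.15%, whereas 91 (74.0%) were protein-coding and not readthrough against 97.3% of all. A span that overlaps another listed gene was found for 49 (39.8%) against 28.1%. The library kit does not mark strand and the strand setting of the counting is not given in the sources used here, so reads of overlapping genes may not be separable. At the RPL36A locus on the X chromosome, the readthrough RPL36A-HNRNPH2 was at 6.85, 20.3 and 29.4 CPM while RPL36A, a ribosomal protein gene, was at 21.4, 23.7 and 9.88 CPM and HNRNPH2, an hnRNP gene, at 123, 121 and 89.05 CPM. The readthrough and RPL36A summed to 28.2 CPM on day 0 and 39.3 CPM on day 7, a ratio of 1.39, whereas all 3 listed features summed to 152 and 128 CPM, a ratio of 0.847. The direction of this locus therefore differs with the features that are summed, and how their shared reads were assigned was not tested. STAG3L5P-PVRIG2P-PILRB, at 15.1, 22.4 and 61.3 CPM, overlaps PVRIG2P and PILRB, and the sum of these listed features was 27.2, 36.3 and 100.7 CPM. Without readthrough loci and among protein-coding genes alone, 91 genes were at least 2-fold higher and 5 at least 2-fold lower.

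On day 7 the libraries of treated spheroids held other levels of several of these genes, all of them set against the same untreated day 7 library. GOLGA8A was at 13.2 and 12.4 CPM in the CON and EE libraries of day 7, FER1L4 at 11.5 and 11.2 CPM, GOLGA8B at 5.02 and 5.06 CPM, LENG8 at 51.02 and 44.9 CPM, NEAT1 at 89.9 and 96.6 CPM and CCNL2 at 76.2 and 75.7 CPM. These are under the untreated day 0 values as well. Of the 36 interferon-stimulated genes compared, 29 were above the untreated day 7 value in the CON library (35.1% of all genes were) and 30 in the EE library (36.2%), with BST2 at 239 and 202 CPM and IFITM1 at 792 and 624 CPM.

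**Figure D2:**
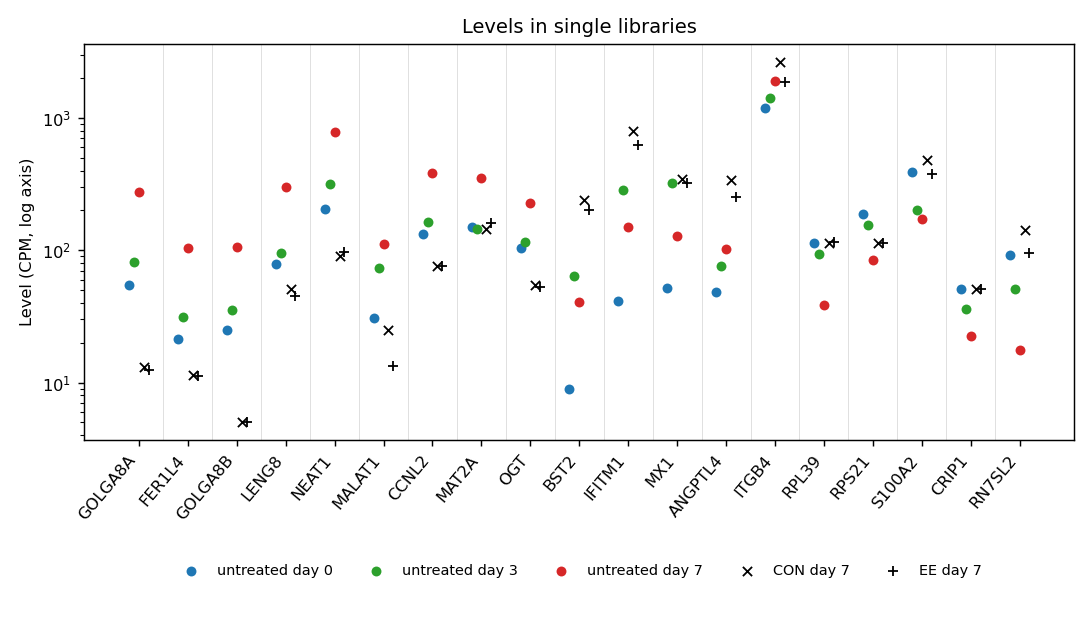
Levels of 19 named genes in 5 single libraries, in CPM on a log axis: untreated days 0 (blue), 3 (green) and 7 (red), and day 7 with CON (cross) or EE (plus). From GOLGA8A to OGT the red point is the highest of the 5, for BST2, IFITM1 and MX1 it lies between the untreated values of days 0 and 3, and for RPL39 to RN7SL2 it is the lowest.

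The interferon-stimulated genes formed the group with the highest median. Of 36 members compared, 34 were higher on day 7 (58.3% of all genes were), 2 were lower and 10 were at least 2-fold higher (1.24% of all genes were), with a median log2 ratio of 0.66 against 0.05. The other lists below are read against the same figures. Promoter sequence is shown for members with high ratios that hold a match to the interferon-stimulated response element, the DNA element of such genes. Members without a match, such as HERC6 with a ratio of 2.49, were passed over. Not every member with a match is shown, IFI44L with a ratio of 2.59 being left out. Sequences are from RefSeq on GRCh38.p14, 5′ to 3′ on the gene's strand, and end at the base before the annotated transcript start. Capitals mark each match to GAAANNGAA (N, any base) on either strand, and overlapping matches are merged.
BST2, chr19:17405631-17405790, minus strand: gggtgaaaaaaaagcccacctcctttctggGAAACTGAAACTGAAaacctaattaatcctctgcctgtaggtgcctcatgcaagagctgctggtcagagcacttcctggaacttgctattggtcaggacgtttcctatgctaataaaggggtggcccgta
IFITM1, chr11:313920-314039, plus strand: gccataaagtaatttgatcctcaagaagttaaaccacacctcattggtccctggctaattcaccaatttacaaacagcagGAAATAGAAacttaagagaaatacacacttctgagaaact
IFI6, chr1:27672193-27672378, minus strand: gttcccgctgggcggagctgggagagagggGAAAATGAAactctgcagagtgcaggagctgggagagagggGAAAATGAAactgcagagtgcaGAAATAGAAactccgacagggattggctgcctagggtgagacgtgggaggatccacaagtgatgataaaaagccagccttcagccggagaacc
OAS3, chr12:112938301-112938473, plus strand: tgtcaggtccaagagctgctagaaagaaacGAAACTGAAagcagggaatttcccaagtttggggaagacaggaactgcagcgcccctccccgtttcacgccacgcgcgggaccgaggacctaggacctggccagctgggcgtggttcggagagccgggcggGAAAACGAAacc

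BST2 holds 2 overlapping matches that begin 130 and 124 bases before the start, IFITM1 holds 1 match at 40 bases, IFI6 holds 3 at 156, 115 and 93 bases, and OAS3 holds 2 at 143 and 12 bases. A promoter window of 250 bases before to 50 after the start was found for 8071 of the 9936 genes. The letters were present in 16 of 27 promoters of the list (59.3%) and in 496 of the 8071 (6.15%). Members with a match had a median log2 ratio of 0.85 and those without one of 0.63. A match describes the letters in the window and is not a measure of binding.

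BST2, whose product tethers budding virions, was at 9.02, 63.6 and 40.8 CPM, a day 7 ratio of 4.52 (3.84 to 5.35). It entered the comparison only through its day 7 value. The membrane antiviral gene IFITM1 was at 41.5, 284 and 151 CPM, 3.63 (3.36 to 3.93). IFI6 was at 78.8, 516 and 200.0 CPM and MX1, an antiviral GTPase, at 51.5, 323 and 128 CPM, with ratios of 2.54 (2.39 to 2.69) and 2.48 (2.30 to 2.67). In each case day 3 was the highest of the untreated libraries and day 7 lay between days 0 and 3. The same order held for the oligoadenylate synthetases, which activate RNase L, with OAS2 at 56.6, 270.4 and 135 CPM and OAS3 at 161, 664 and 361 CPM. Every member of the list was higher on day 3 than on day 0 (57.5% of all genes were), with a median log2 ratio of 1.54, and 0 of 36 were higher on day 7 than on day 3 (49.9% of all genes were), with a median of -0.82.

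By role, the RNA sensors IFIH1 and DDX58 (RIG-I) were at 14.2, 52.6 and 26.5 CPM and at 21.1, 60.7 and 35.2 CPM. The transcription factors STAT2 and IRF9 had ratios of 1.68 (1.59 to 1.77) and 1.46 (1.32 to 1.62), while IRF7 had 1.29 (1.19 to 1.39). The ubiquitin-like effector ISG15 was at 274, 939 and 447 CPM. Antigen presentation genes were included, with HLA-B at 77.2, 228 and 156 CPM, the peptide transporter TAP1 at 87.9, 229.7 and 152 CPM and B2M, the light chain of class I molecules, at 718, 1035 and 963 CPM. HLA class I genes have many alleles, which alignment to a reference genome may treat unequally. The lowest members were ISG20 (0.963 (0.877 to 1.06)), IFITM2 (0.986 (0.917 to 1.06)), PSMB8 (1.07 (0.974 to 1.19)) and OASL (1.11 (0.944 to 1.30)), whose intervals all include 1. Genes at least 2-fold higher that were not on the list but are also known to respond to interferon were MX2 at 7.06, 49.7 and 22.8 CPM, the guanylate-binding proteins GBP1, GBP2 and GBP4, with GBP4 at 17.8, 73.3 and 49.00 CPM, and IDO1, which breaks down tryptophan, at 9.32, 35.2 and 26.6 CPM; they were named after their values were seen.

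Inflammatory genes driven by NF-kB had a similar course. Of 17 members 16 were higher on day 7, with a median log2 ratio of 0.28, after a day 3 median of 1.00. CXCL8, the neutrophil chemokine interleukin-8, was at 170.3, 1600.3 and 174 CPM, so a high day 3 value was followed by a day 7 value with an interval of 0.972 to 1.07 around a ratio of 1.02. The feedback inhibitor TNFAIP3 was at 21.2, 108 and 33.3 CPM, ICAM1 at 107, 194 and 166 CPM and the cytokine LIF at 99.7, 200.0 and 204 CPM (2.04, 1.93 to 2.16). IL1B, at 36.7, 33.5 and 33.3 CPM, was the lower member. Genes of the integrated stress response, induced through ATF4, and of serine synthesis were higher on day 3 in 24 of 25 with a median of 0.60 and came back to a median of 0.00 on day 7, with 13 higher and 12 lower. ATF3 was at 15.1, 124 and 16.6 CPM and ASNS, asparagine synthetase, at 23.4, 61.9 and 24.7 CPM. DDIT3 (CHOP) kept a higher level at 9.17, 51.1 and 19.7 CPM (2.15, 1.80 to 2.58). All these lists share the day 0 library between their day 3 and day 7 ratios.

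**Figure D3:**
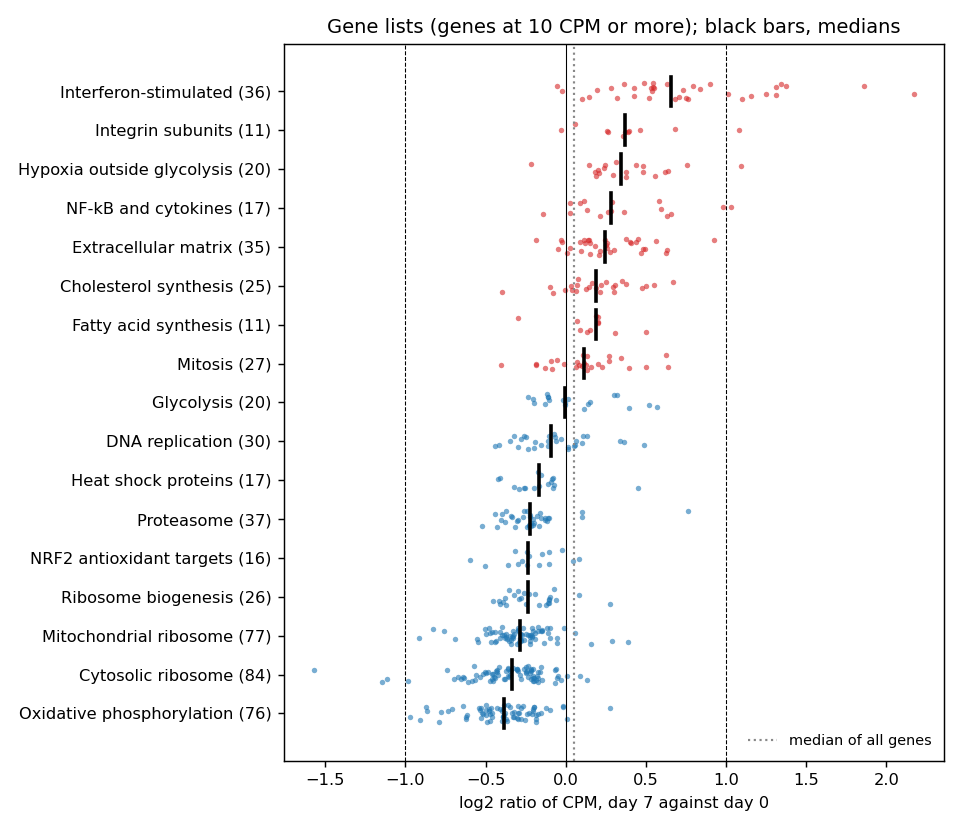
log2 ratio of CPM on day 7 against day 0 for the members of 17 gene lists, 1 point per gene with the number of genes in parentheses; black bars are list medians, the dotted line the median of all genes (0.05) and the dashed lines a 2-fold ratio. The interferon list has the highest median (0.66) and the oxidative phosphorylation list the lowest (-0.39).

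Hypoxia-inducible genes outside glycolysis were higher on day 7 in 19 of 20, with a median log2 ratio of 0.34, compared with a day 3 median of 0.09. The core of the hypoxia-response element, to which hypoxia-inducible factors bind, is ACGTG. Members without these letters, such as KDM3A, were passed over. The letters (capitals, either strand) are shown in promoters of members with high ratios that hold them, from RefSeq on GRCh38.p14 as above.
ANGPTL4, chr19:8363905-8364154, plus strand: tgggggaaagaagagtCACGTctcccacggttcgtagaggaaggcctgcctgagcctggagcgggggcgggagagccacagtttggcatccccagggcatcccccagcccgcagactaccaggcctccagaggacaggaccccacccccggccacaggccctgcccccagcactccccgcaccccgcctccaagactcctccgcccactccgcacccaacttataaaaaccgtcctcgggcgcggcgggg
DDIT4, chr10:72273769-72273923, plus strand: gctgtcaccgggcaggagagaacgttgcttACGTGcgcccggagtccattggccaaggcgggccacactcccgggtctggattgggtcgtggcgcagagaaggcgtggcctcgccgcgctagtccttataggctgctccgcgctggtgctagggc

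These letters were found in 9 of 16 promoters of the list (56.2%), in 8 of 20 of glycolysis genes (40.0%) and in 27.9% of all 8071 promoters. Among promoters of genes at least 2-fold higher, 10 of 78 held them (12.8%). List members with a match had a median log2 ratio of 0.37 and those without one of 0.31. ANGPTL4, a secreted inhibitor of lipoprotein lipase, was at 48.2, 76.4 and 103 CPM, 2.13 (1.97 to 2.31), and the angiogenic factor VEGFA at 66.3, 91.4 and 112 CPM, 1.69 (1.58 to 1.81). KDM3A, a histone demethylase, was at 67.7, 74.8 and 105 CPM and DDIT4, an inhibitor of mTORC1 signaling, at 15.5, 26.4 and 23.7 CPM. ADM was the lower member at 27.8, 28.6 and 23.9 CPM. NDRG1, at 3578, 2670.0 and 3961 CPM, was lower on day 3 and higher on day 7 than on day 0. Glycolysis genes, many of which are also hypoxia targets, did not share this direction. Of 20 members 9 were higher and 11 lower, with a median of -0.0040. The kinases that raise fructose 2,6-bisphosphate were the highest, with PFKFB3 at 70.1, 76.9 and 104 CPM and PFKFB4 at 128, 150.3 and 184 CPM, and the glucose transporter SLC2A1 was at 543, 498 and 677 CPM. The abundant enzymes were lower, with PKM at 4431, 3773 and 3770.4 CPM and LDHA at 3934, 3180.0 and 3421 CPM.

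Most matrix and adhesion genes were higher on day 7. Of 35 genes of the extracellular matrix and its proteases 31 were higher with a median log2 ratio of 0.25, whereas on day 3 only 11 were higher and the median was -0.09. SPARC, a matricellular protein, was at 84.4, 133 and 160.1 CPM, 1.90 (1.79 to 2.01). All 6 laminin genes were higher (median 0.35), for example LAMA5 at 729, 523 and 1027 CPM, and 11 of 12 collagen genes (median 0.27), among them COL5A1 at 22.9, 24.04 and 35.6 CPM. The exception was COL13A1, a transmembrane collagen, at 125, 59.3 and 109.8 CPM. HSPG2, the basement membrane proteoglycan perlecan, was at 1848, 1489 and 2561 CPM and had the third largest gain in CPM. Integrin subunits were higher in 10 of 11 with a median of 0.37 against a day 3 median of -0.02, and 11 of 11 were higher on day 7 than on day 3. Transcripts of both lists are long, with a median of 5816 nt for integrins and 5408 nt for matrix genes, and of all genes with transcripts from 4000 to 6000 nt 73.5% were higher on day 7, and of those of at least 6000 nt 84%. With the trend on transcript length, gene span and GC content removed, the medians were 0.22 for integrins and 0.19 for matrix genes. ITGB4, the laminin receptor subunit of hemidesmosomes, was at 1184, 1424 and 1902 CPM, 1.61 (1.58 to 1.63), with the second largest gain in CPM. ITGA10 was at 11.7, 13.9 and 24.8 CPM, ITGAV at 69.8, 74.1 and 96.4 CPM and ITGA2 at 359.9, 259 and 473 CPM. ITGA3 was at 1323, 1113 and 1379 CPM and ITGB5 at 54.7, 49.6 and 53.7 CPM. The largest gain in CPM belonged to MUC5B, a gel-forming mucin, at 2541, 2139.9 and 3394 CPM. With the same trend removed, log2 ratios went from 0.42 to 0.12 for MUC5B, from 0.68 to 0.54 for ITGB4 and from 0.47 to 0.19 for HSPG2.

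Lipid synthesis genes were also higher in most members. Cholesterol genes were higher in 21 of 25 (median 0.19) and 24 of 25 were already higher on day 3 (median 0.21). INSIG1, a feedback regulator of sterol synthesis, was at 95.9, 128 and 136 CPM, while PMVK was lowest at 51.9, 50.9 and 39.4 CPM. Of 11 fatty acid genes 10 were higher (median 0.19), with the desaturase SCD at 589, 825 and 833 CPM and the malic enzyme ME1 lower at 73.7, 52.8 and 59.9 CPM. Fatty acid transcripts are long, with a median of 4364 nt. With the trend on transcript length, gene span and GC content removed, the medians were 0.18 for cholesterol and 0.10 for fatty acid genes. After scaling by the median of ratios both were 0.09.

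Genes of mitosis were lower on day 3 and back near the day 0 level on day 7. Only 3 of 27 were higher on day 3, with a median log2 ratio of -0.63, 19 were higher on day 7 than on day 0, with a median of 0.12, and 25 were higher on day 7 than on day 3, with a median of 0.83. Promoters of this class often carry the cell cycle homology region (CHR), with the letters TTTGAA. Members without these letters, such as CCNB1, were passed over. The letters (capitals, either strand) are shown for PLK1 and CDC20, holders with low day 3 ratios, from RefSeq on GRCh38.p14 as above.
PLK1, chr16:23678769-23678888, plus strand: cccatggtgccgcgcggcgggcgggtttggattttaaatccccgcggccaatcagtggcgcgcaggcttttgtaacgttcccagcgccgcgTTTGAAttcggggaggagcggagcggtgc
CDC20, chr1:43358773-43358980, plus strand: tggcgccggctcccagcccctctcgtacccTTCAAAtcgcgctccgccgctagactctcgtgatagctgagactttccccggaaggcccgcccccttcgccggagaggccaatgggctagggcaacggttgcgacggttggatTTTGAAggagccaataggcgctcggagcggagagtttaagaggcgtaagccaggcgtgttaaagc

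The CHR letters were found in 15 of 22 mitosis promoters (68.2%) and in 9.02% of all 8071, and those of the CCAAT box, a distinct element, in 18 of 22 (81.8%) and in 37.1%. The mitotic kinase PLK1 was at 70.1, 21.6 and 67.6 CPM, its CPM on day 3 being the lowest of the 3 days. CCNB1, the mitotic cyclin B1, was at 81.01, 29.7 and 71.2 CPM and CDC20, an activator of the anaphase-promoting complex, at 83.9, 41.7 and 73.9 CPM. CENPE and ASPM, of the kinetochore and the spindle pole, had the highest day 7 ratios at 1.56 (1.37 to 1.78) and 1.54 (1.38 to 1.72), and BIRC5 (survivin) the lowest at 0.756 (0.728 to 0.786). DNA replication genes had another course. On day 3, 22 of 30 were higher (57.5% of all genes were), with a median of 0.23. On day 7, 19 of 30 were lower than on day 0 (41.7% of all genes were), with a median of -0.09. The members named next did not follow this course, as MCM5 and MCM6 were not higher on day 3 and POLE was higher on day 7. MCM5 and MCM6, of the replicative helicase, were at 55.6, 54.7 and 40.9 CPM and at 68.3, 55.8 and 53.8 CPM, and POLE, the leading strand polymerase, at 42.3, 60.1 and 59.4 CPM.

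**Figure D4:**
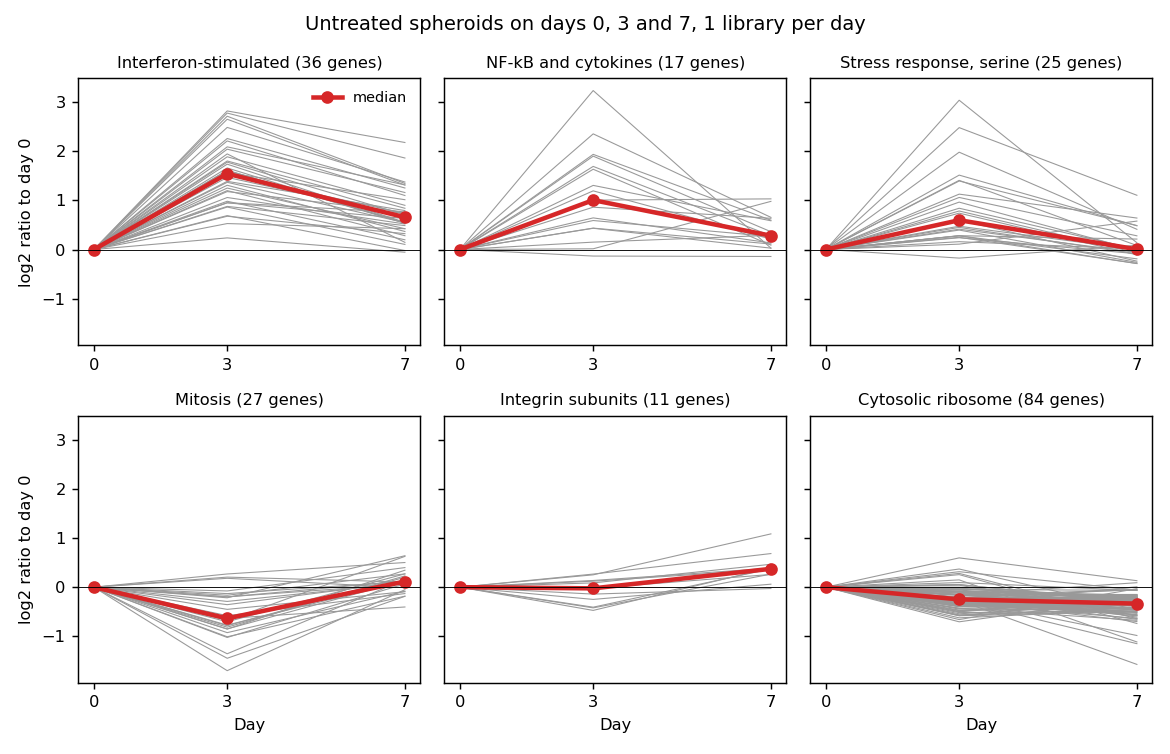
log2 ratio to day 0 on days 0, 3 and 7 (x axis) for the members of 6 gene lists in untreated spheroids, 1 library per day; grey lines are genes and red lines medians. The medians of the interferon, NF-kB and stress response lists peak on day 3 (1.54, 1.00 and 0.60), that of mitosis is lowest on day 3 (-0.63), the integrin median leaves 0 after day 3, and the ribosomal protein median is lower on both days.

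The lists with the lowest medians were those of nuclear oxidative phosphorylation genes and of ribosomal proteins. Of 84 cytosolic ribosomal protein genes 81 were lower on day 7 (41.7% of all genes were), with a median log2 ratio of -0.33, and 3 of the 7 genes at least 2-fold lower were on this list, namely RPL39, RPS21 and RPL36A. Transcripts of this list are short, and among genes outside it and the oxidative phosphorylation, mitochondrial ribosomal and proteasome lists 84.9% of those with transcripts under 600 nt and 82% of those from 600 to 1000 nt were lower as well. With the trend on transcript length, gene span and GC content removed, the median of the ribosomal protein list was -0.067. The summed level of its members was 48970 CPM on day 0, 41205 on day 3 and 38877 on day 7. RPL39 was at 114, 94.3 and 38.3 CPM, 0.337 (0.310 to 0.366), RPS21 at 188, 156 and 84.7 CPM, 0.451 (0.425 to 0.478), and RPS29 at 338, 285 and 171 CPM, 0.506 (0.485 to 0.528). Ribosomal protein genes have many processed pseudogenes, so their reads may be divided between copies. RPL13AP5, a pseudogene of RPL13A with one of the largest losses in CPM, was at 2868, 1999.8 and 1993 CPM. With the same trend removed, its log2 ratio went from -0.53 to -0.066. The members not lower were RPL22L1, RPL23 and RPL26, with ratios of 1.10 (0.940 to 1.28), 1.07 (1.03 to 1.11) and 1.01 (0.960 to 1.05).

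Nuclear genes of oxidative phosphorylation were lower in 74 of 76, with the median at -0.39. Each complex of the respiratory chain was included. In complex I 36 of 37 genes were lower (median -0.38), in complex II 3 of 4 (-0.35), in complex III 9 of 9 (-0.38), in complex IV 10 of 10 (-0.43) and in ATP synthase 16 of 16 (-0.39). NDUFA1 was at 73.2, 57.1 and 37.3 CPM, 0.509 (0.465 to 0.557), and SDHA, the flavoprotein of complex II, was higher at 281, 285 and 341 CPM. Mitochondrial ribosomal protein genes were lower in 73 of 77 (median -0.29), with MRPL51 at 77.95, 59.4 and 41.3 CPM, ribosome biogenesis genes in 24 of 26 (-0.24) and proteasome genes in 34 of 37 (-0.23). Ribosome biogenesis genes were not lower as a group on day 3, with 15 of 26 higher and a median of 0.05. Their transcripts have a median of 2160 nt, and with the trend on transcript length, gene span and GC content removed their day 7 median was -0.15. PSMB6, a catalytic proteasome subunit, was at 107, 92.6 and 74.7 CPM. The proteasome members that were not lower, PSMB8, PSMB9 and PSMB10, are the interferon-inducible subunits of the immunoproteasome, PSMB9 being at 8.27, 18.7 and 14.02 CPM. Heat shock protein genes were lower in 16 of 17 (median -0.16), HSPA6 at 23.97, 31.05 and 32.7 CPM being the exception. On day 3 only 4 of 17 were higher (median -0.21), and 10 of 17 were higher on day 7 than on day 3. Antioxidant targets of NRF2 were lower in 14 of 16 (-0.23), with NQO1 at 151, 116 and 100.1 CPM. With the same trend removed, the day 7 medians were -0.11 for heat shock and -0.16 for NRF2 genes.

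The ratio of day 7 to day 0 moved with transcript length, and this touches the ribosomal and mitochondrial lists directly because their transcripts are short. Across the 9790 genes with a canonical transcript (98.5%), Spearman's rho between the log2 ratio and transcript length was 0.49 for day 7 against day 0, 0.10 for day 3 against day 0 and 0.37 for day 7 against day 3, a description across genes that share the same libraries. The rho was 0.35 with exon number and -0.14 with GC content of the transcript. Genes with transcripts under 600 nt had a median of -0.42 (139 genes), those from 600 to 1000 nt -0.25 (422 genes) and those of at least 6000 nt 0.22 (1953 genes). Among transcripts under 1000 nt, the medians of the cytosolic ribosomal, oxidative phosphorylation and mitochondrial ribosomal lists were -0.36, -0.46 and -0.36. Genes outside these lists and the proteasome list stood at -0.40 under 600 nt and -0.22 from 600 to 1000 nt. Members with transcripts of at least 1000 nt had medians of -0.30, -0.35 and -0.27, with 35 of 37, 30 of 32 and 47 of 51 lower. Genes outside the lists stood at -0.14 from 1000 to 1500 nt, -0.066 from 1500 to 2000 nt and 0.0030 from 2000 to 3000 nt. With the trend on length, gene span and GC content removed, the list medians were -0.14 for oxidative phosphorylation, -0.09 for mitochondrial ribosomal proteins and -0.13 for the proteasome, and they were 0.76 for interferon and 0.37 for hypoxia genes. The trend held 20.5% of the variance of the log2 ratio across genes. The part that library preparation or RNA integrity plays in the relation with length was not tested.

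**Figure D5:**
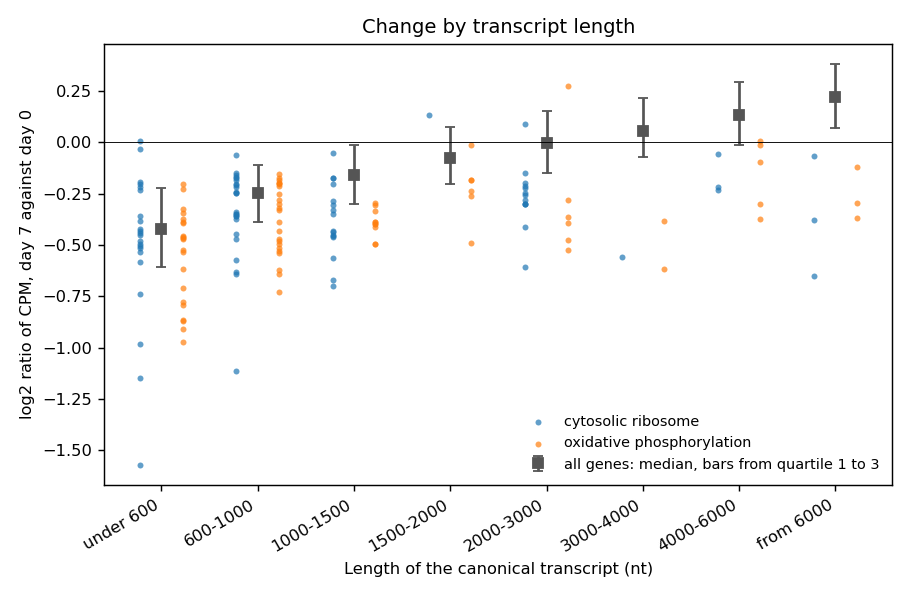
log2 ratio of CPM on day 7 against day 0 (y axis) by length of the canonical transcript in nt (x axis, 8 classes); squares are medians of all genes with bars from the lower to the upper quartile, and points are ribosomal protein (blue) and oxidative phosphorylation genes (orange). The medians climb from -0.42 in the shortest class to 0.22 in the longest, and most colored points lie in the shorter classes.

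Other genes with low ratios were few. RN7SL2 and RN7SL1, which encode the RNA of the signal recognition particle, were at 91.9, 50.6 and 17.8 CPM and at 81.1, 53.4 and 24.4 CPM; they are near-identical copies, so the value of each is uncertain. S100A2, a calcium-binding protein of squamous and basal epithelia, was at 393, 202 and 173 CPM, 0.440 (0.422 to 0.458), and CRIP1, a small LIM domain protein, at 50.95, 36.1 and 22.6 CPM, 0.443 (0.395 to 0.497). CST6, a cysteine protease inhibitor, was at 18.5, 10.8 and 9.40 CPM, UQCC2 at 40.3, 31.1 and 21.01 CPM and POLR2L, a subunit shared by the RNA polymerases, at 451, 331 and 239.8 CPM. The lowest listed features also included an unnamed locus and the readthrough CHURC1-FNTB. In CPM the largest losses belonged to FTH1, ferritin heavy chain, at 11928, 13436 and 10093 CPM, to S100A6 and to the elongation factor EEF1A1 at 5682, 4669.9 and 4631 CPM. With the trend on transcript length, gene span and GC content removed, the log2 ratio of FTH1 went from -0.24 to -0.0014. That of S100A6 went from -0.64 to -0.13 and that of EEF1A1 from -0.29 to -0.28. In the day 7 libraries of treated spheroids RPL39 was at 113 and 115 CPM, S100A2 at 485 and 376 CPM and RN7SL2 at 141 and 94.9 CPM.

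The markers of epithelial-mesenchymal transition (EMT) on which the study centers moved little and in both directions. Of 23 members 14 were higher and 9 lower with a median log2 ratio of 0.13, and 0 reached 2-fold. The lowest was S100A6, a calcium-binding protein, at 3518, 3074 and 2252 CPM (0.640, 0.633 to 0.648). With the trend on transcript length, gene span and GC content removed, its log2 ratio went from -0.64 to -0.13. The list median then went from 0.13 to 0.08. The highest member was ZEB1, a repressor of E-cadherin, at 9.77, 13.7 and 16.2 CPM (1.66, 1.38 to 1.99), which entered the comparison only through its day 7 value. CDH1, E-cadherin itself, was also higher at 236, 223 and 302 CPM. HAS3, a hyaluronan synthase, was at 689.9, 746 and 923 CPM, CD55, a complement inhibitor, at 212, 282 and 239.9 CPM and TGFB1 at 178, 176 and 177 CPM. EZH2 was at 28.7, 38.1 and 25.9 CPM and FSCN1, the actin bundler fascin, at 1319, 1059 and 1193 CPM. Epithelial adhesion and identity genes were evenly divided, 16 higher and 16 lower, with a median of 0.04 that turned to -0.06 after scaling by the median of ratios.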

How the data were processed

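Bulk RNA-seq libraries of PC-3 spheroids were made by the authors from total RNA with a kit that does not mark strand. Per the study's methods, the authors aligned reads with STAR, counted them per gene and normalized them to CPM, and the submitters' processing notes name Partek and hg38. The deposited CPM of 18144 genes carry an offset of 0.0001 added to each value by the authors. Here this offset was subtracted, ratios of single libraries were formed without a pseudocount, and 0 of the genes compared were at 0 in either library. From 87.7% to 88.3% of values under 2 CPM in the untreated libraries lie on whole reads (within 0.02 reads), which gives the depth, but since the rest do not, no count model was run. The fixed plan of groups and ratios was kept, and since no day has a second library, no test was made.

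Named genes followed a rule: the 15 highest and 15 lowest ratios (readthrough loci, pseudogenes and unnamed loci described by number or by locus), the 5 largest gains and losses in CPM, up to 4 highest and lowest members of each list, the study's markers HAS3, CD55, CD44, VIM, TGFB1, EZH2 and FSCN1, and cell type markers. Others were named after their values were seen. Some genes that the rule names are not reported here. The members, the lists and this rule were chosen with earlier results of these data known. Transcript length, exon number and GC content are those of the canonical transcript in GENCODE 44, and gene types and promoters those of RefSeq on GRCh38.p14. Python 3.11.15 was used with pandas 2.3.3, numpy 2.4.6, matplotlib 3.10.9 and scipy 1.17.1. The ratio, interval, scaling and trend steps were tested on simulated data. Alternatives covered scaling, the filter on low values, the pseudocount, the fold and the trend with transcript properties. Those on gene type, overlap and baseline were chosen after seeing the data.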

Additional observations from a re-analysis of the deposited data

How the results depend on the processing

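No paired analysis was possible because each day has 1 library, and leaving out a replicate was not possible for the same reason. Library totals without mitochondrially encoded genes were not run, since no such gene is among those analysed. Of 24 alternative counts of genes at least 2-fold higher or lower, 9 stayed within 1.5 times the values of 123 and 7. The others were 566 and 105 at 1.5-fold, 28 and 2 at 3-fold, 548 and 47 at a mean of at least 1 CPM, 304 and 17 without a filter and with a pseudocount of 1 CPM, and 73 and 89 with day 3 in place of day 0. For higher genes alone they were 27 at a mean of at least 50 CPM and 74 among genes that overlap no other. For lower genes alone they were 11 after scaling by the trimmed mean of M values, 16 after scaling by the median of ratios and 3 with the trend on transcript length, span and GC content removed. With that trend removed 113 genes were higher, of which 98 were among the 115 annotated genes higher without it. The scalings lower every log2 ratio by 0.05 (trimmed mean) and 0.10 (median of ratios).

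Of 222 alternative list medians, 168 stayed within the counting interval of the member nearest the median, 53 moved beyond it, and 1 list of which at least 75% of members shared a direction changed sign, the squamous and secretory list, from -0.17 to 0.12 with the trend removed. Counting lists without such a direction, 12 of 37 list medians changed sign under at least 1 alternative (21 values, of which 19 had a median within 0.1 of 0), among them splicing regulators, epithelial adhesion, stemness, lysosome and TGF-beta genes by the median of ratios. By the median of ratios, medians were 0.56 for interferon, 0.25 for hypoxia, 0.28 for integrins, 0.15 for matrix, 0.020 for mitosis, -0.10 for glycolysis, -0.43 for cytosolic ribosomal proteins, -0.48 for oxidative phosphorylation and -0.32 for the proteasome. By the trimmed mean they were 0.19 for matrix, -0.059 for glycolysis and -0.39 for cytosolic ribosomal proteins. With the trend removed they were 0.76 for interferon, 0.22 for integrins, 0.19 for matrix, 0.026 for glycolysis, -0.067 for cytosolic ribosomal proteins, -0.14 for oxidative phosphorylation and -0.13 for the proteasome. The lower lists approach 0 there because the removed trend gives short transcripts lower ratios. Among 487 alternative values of named genes, 338 stayed within their counting interval and 149 moved beyond it. Of the genes at least 2-fold from day 0, 0 changed sign, but these lie far from 0 beside the scaling shifts above. That count therefore says little about how stable directions are. Named genes nearer 0 did change sign, for example CD44 from 0.06 to -0.03 by the median of ratios. With the trend removed PTTG1 went from -0.13 to 0.22 and IFITM2 from -0.02 to 0.29. Without a second library per day, the spread between spheroids is unknown and no value shows that a difference exceeds it.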
